A study of Mus musculus with 8 samples.

Results

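The spinal interneuron identity transcription factors are 36 genes of the 55291 in the count table, chosen by name: factors used to sort spinal interneurons into classes, in the dorsal inhibitory, dorsal excitatory, V1 and dI6, V2b, V0, V2a and V3 classes, with 9 factors that mark birth time or lamina. RNA of whole lumbar spinal cord was sequenced from 8 male mice on a C57BL/6J background. All 8 carried the human *SOD1G93A* transgene, a model of amyotrophic lateral sclerosis, and *Cx3cr1* Cre/+, a tamoxifen-inducible Cre expressed by microglia and other *Cx3cr1*-expressing cells. Of these, E1776, E5231, E5248 and E5568 were *Ager* fl/fl, called *Ager*-deleted, and E5386, E5642, E6578 and E6732 were *Ager* +/+ and served as Cre-expressing controls. Values are given in this order of mice throughout. *Ager* encodes RAGE, the receptor for advanced glycation end products. All 8 received 5 daily injections of 0.2 µg tamoxifen at 12 weeks of age. The sample labels give an age of 120 days at collection and the study's text describes tissue at the humane endpoint. There was no group without the *SOD1G93A* transgene, so each level below is that of a diseased cord, and the deletion was aimed at microglia while the RNA was that of every cell in the cord.

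In the embryo, neurons born at successive dorsoventral positions of the neural tube switch on different combinations of homeodomain, LIM, paired, zinc finger and forkhead factors, and these combinations fix transmitter, axon course and settling position. Dorsal classes become the interneurons of sensory laminae, and ventral classes become the premotor interneurons around motor neurons. In the mature cord some of these factors stay on in restricted neurons and others are switched off, and several are also used by cells that are not neurons. In RNA of whole tissue, fewer cells of a class and less RNA per cell cannot be told apart.

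Total counts per mouse were between 31148047 and 40324897, so that 3 counts, taken as the smallest detectable amount, equalled between 0.0729 and 0.0975 CPM (a count scaled to the size of its library, here with TMM factors). This floor covers counting error only. *Ager* itself was at 0.889, 1.51, 1.02 and 1.34 CPM in the deleted mice and at 1.53, 2.22, 2.18 and 2.41 CPM in the controls, lower in every deleted mouse (exact two-sided permutation p = 0.0286, the smallest that 4 against 4 allows; adjusted p = 0.252 in edgeR's exact test over all genes). Some libraries stood apart in markers of other tissues. The mean log2(CPM + 1) of 20 skeletal muscle genes was 5.60 in E5386 and 6.00 in E5642 and between 1.21 and 1.81 in the other 6 mice, and 3 of these 20 genes were called between the genotypes. The mean of 12 liver genes was 5.47 in E6732 and between 1.23 and 1.41 elsewhere. The mean of 13 sensory neuron and nerve root genes was 1.86 in E5386 and between 2.79 and 3.18 elsewhere. All 3 libraries were controls. E5386 and E5642 were left out together, and E6732 alone; the 3 were not left out at once, which would leave 1 control.

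Of the 36 factors, 35 passed the filter on low counts and could be compared between genotypes. Of these, 22 had at least 100 counts in every mouse and 13 had fewer in some mouse. The factor that did not pass was *Ptf1a*, which drives inhibitory over excitatory fate in dorsal progenitors, and it had 0 counts in each of the 8 mice, so its level was at most 0.0975 CPM by the 3-count floor. Reads on 609 of its 1508 exon bases (40.4%) also lie on its antisense gene *Ptf1aos*, which had 0 counts too. The counts behaved as those of a count that ignores strand and leaves out reads on overlapping genes: 78 of 79 genes whose exons lie wholly inside exons of an abundant gene on the opposite strand had 0 counts over all mice, as did 14 of 14 such genes on the same strand. The value for *Ptf1a* therefore rests on the rest of its exons.

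Per kilobase of exon, the scale on which genes can be compared, the 35 detected factors ran from 0.0363 CPM per kb for *Sim1*, the V3 factor, to 5.82 CPM per kb for *Prox1*, a marker of late-born, locally projecting neurons. Below *Prox1* came *Maf* at 4.90, *Mafa* at 4.65, *Pax2* at 3.97, *Nfib* at 3.89, *Prrxl1* at 3.80 and *Lmx1b* at 3.79 CPM per kb. Dorsal horn and birth-time factors thus held 6 of these 7 places and the V1 factor *Mafa* the remaining 1. At the low end, next to *Sim1*, were *Lhx9* at 0.0541 and *Wt1* at 0.0759 CPM per kb. In CPM, 13 factors averaged above 10 and 10 averaged under 1. The plot of every factor in every mouse shows this range within each class.

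**Figure D1:**
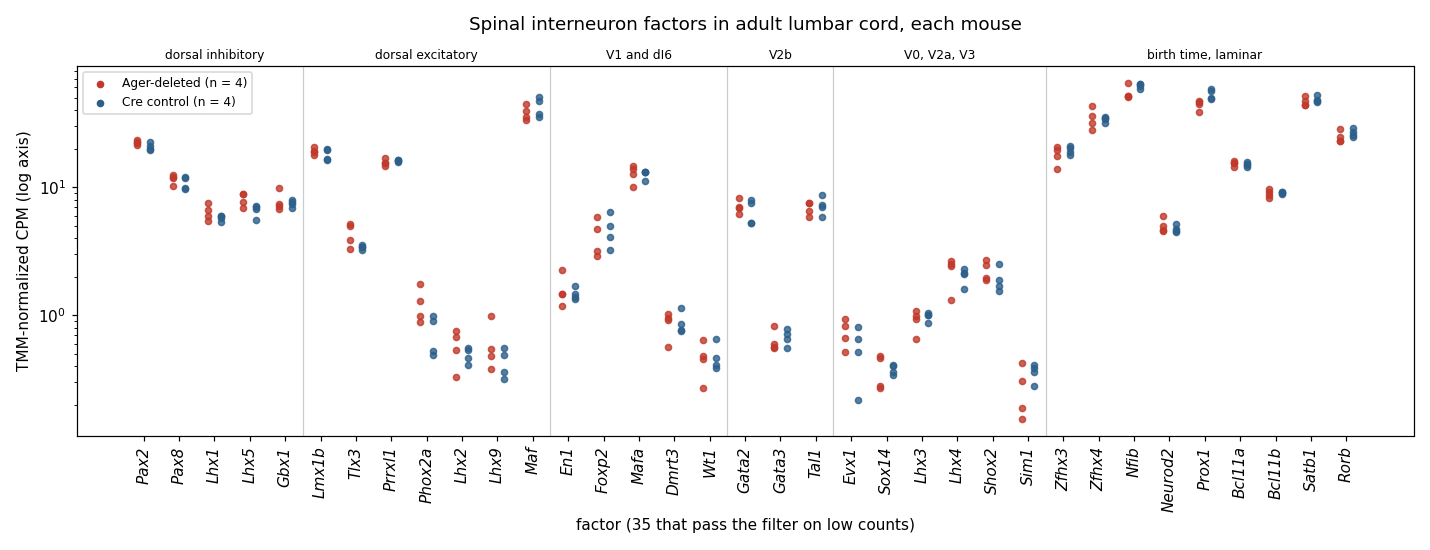
TMM-normalized CPM (log axis) of the 35 factors that passed the filter, by class, with 1 point per mouse in red for the 4 *Ager*-deleted mice and in blue for the 4 Cre controls. Dorsal and birth-time factors fill the upper range, while *Sim1*, *Sox14*, *Lhx2*, *Lhx9*, *Wt1*, *Evx1* and *Gata3* lie under 1 CPM in every mouse. The colours overlap for every factor but *Prox1*.

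RefSeq promoter windows on GRCm38.p6 were matched for 28 of the 36 factors. The 250 bases before the start site held a median of 13.5 CG dinucleotides, and 22 of 28 windows (78.6%) held 10 or more, against a median of 6 and 38.2% over 27018 windows of all genes. The windows of the factor with no counts and of the pair with the smallest p in the comparison of genotypes are shown, 5′ to 3′ on the strand of the gene, with each CG in capitals. They lie at chr2:19445413-19445662 on the + strand (*Ptf1a*, 19 CG), chr1:190170828-190171077 on the − strand (*Prox1*, 20 CG) and chr7:101818063-101818312 on the + strand (*Phox2a*, 22 CG).
Ptf1a: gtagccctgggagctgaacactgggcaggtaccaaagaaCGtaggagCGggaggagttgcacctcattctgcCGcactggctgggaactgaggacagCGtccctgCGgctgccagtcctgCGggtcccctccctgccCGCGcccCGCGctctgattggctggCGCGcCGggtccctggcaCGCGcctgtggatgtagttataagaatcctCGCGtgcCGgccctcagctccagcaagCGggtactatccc
Prox1: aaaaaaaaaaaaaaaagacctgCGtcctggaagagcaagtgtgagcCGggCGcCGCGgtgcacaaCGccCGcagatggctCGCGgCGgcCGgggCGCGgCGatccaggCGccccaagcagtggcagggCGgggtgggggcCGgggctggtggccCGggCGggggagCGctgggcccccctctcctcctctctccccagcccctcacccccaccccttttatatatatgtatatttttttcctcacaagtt
Phox2a: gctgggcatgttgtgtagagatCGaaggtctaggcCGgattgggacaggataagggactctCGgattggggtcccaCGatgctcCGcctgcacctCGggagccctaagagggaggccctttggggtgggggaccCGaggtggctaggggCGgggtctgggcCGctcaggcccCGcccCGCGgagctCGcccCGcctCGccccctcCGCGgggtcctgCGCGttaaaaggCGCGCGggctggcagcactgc
The gene without counts and the factor with the highest level per kilobase thus had windows with nearly the same number of CG, and the window of *Phox2a*, a gene at about 1 CPM, held more than either. These counts describe letters and were not related to expression by any test.

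No factor differed between *Ager*-deleted and control mice at an adjusted p under 0.05: 0 of 35 were called by edgeR's exact test, which called 14 of all 19470 genes (0.0719%; 0.0103% higher and 0.0616% lower in *Ager*-deleted mice). The quasi-likelihood test called 0 of 35 and 1 gene in all (0.00514%), and the exact test on common plus tagwise dispersions called 0 of 35 and 78 genes in all (0.401%). At an unadjusted p under 0.05 the exact test held 2 of 35 factors, *Prox1* and *Phox2a* (5.71%, against 4.26% of all genes), and the quasi-likelihood test 3 (against 6.71% of all genes). The genotypes did not overlap for 1 of 35, *Prox1*, against 3.88% of all genes (1.91% lower, as *Prox1*, and 1.97% higher in *Ager*-deleted mice). Without E1776 they did not overlap for 4 (*Prox1*, *Phox2a*, *Lhx5* and *Nfib*), and without any other single mouse for 1 to 3. Over all genes the share was 6.23% without E1776 (11.4% of the factors) and between 4.99% and 11.0% without each other mouse.

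The sizes were small. The median log2 fold change, *Ager*-deleted over control, was 0.03 over the 35 factors and 0.0069 over all genes, with 19 factors above 0 and 16 below (54.3% above, against 52.0% of all genes). Fold changes ran from -0.43 for *Sim1* to 0.75 for *Phox2a*, and 34 of 35 were within 1.5-fold. For 31 of 35 factors (88.6%, against 90.7% of all genes) the 95% interval lay within a log2 fold change of 1 in either direction, so for these a difference of more than 2-fold lies outside the interval. The 4 wider intervals were those of *Phox2a*, *Lhx9*, *Evx1* and *Sim1*, which had 6 to 65 counts per mouse.

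**Figure D2:**
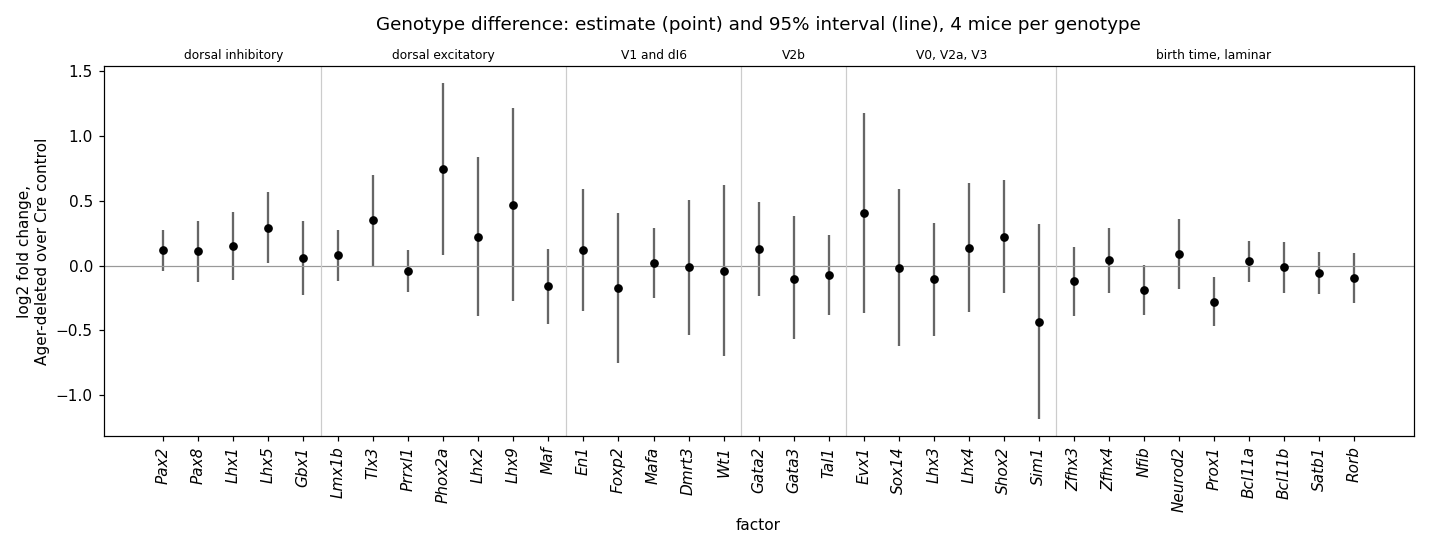
Log2 fold change of each factor, *Ager*-deleted over Cre control (points), with its 95% interval from the quasi-likelihood fit (lines), 4 mice per genotype, by class. The intervals of *Prox1*, *Phox2a* and *Lhx5* do not cross 0, and no factor passed correction over all genes.

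The dorsal inhibitory factors that were detected are *Pax2*, *Pax8*, *Lhx1*, *Lhx5* and *Gbx1*, and all 5 had log2 fold changes above 0, from 0.05 to 0.29 with a median of 0.12, under each normalization tried. None of the 5 passed the test (lowest adjusted p = 1 in edgeR's exact test), and without E5231 the lowest was -0.07. *Lhx5*, a LIM factor that keeps the inhibitory state and *Pax2* on, was at 6.88, 8.87, 7.68 and 8.87 CPM in the deleted mice and at 5.58, 7.07, 6.96 and 6.78 CPM in the controls. The lowest deleted mouse, E1776, lay inside the range of the controls and the other 3 lay above it. The log2 fold change was 0.29 (SE 0.12, 95% interval 0.02 to 0.57, adjusted p = 1 in edgeR's exact test). Counts of *Lhx5* share 69 exon bases with the antisense gene *Gm27199* (30 to 61 counts).

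*Pax2*, the most abundant of the class per length and the standard marker of dorsal inhibitory neurons, was at 23.5, 22.2, 22.3 and 21.3 CPM in the deleted mice and at 19.4, 20.8, 22.5 and 19.7 CPM in the controls. Only the control E6578 reached into the range of the deleted mice, and the log2 fold change was 0.12 (SE 0.070, 95% interval -0.04 to 0.27). *Pax8*, its partner in inhibitory neurons, spanned 9.63 to 12.4 CPM, *Lhx1* spanned 5.30 to 7.45 CPM and *Gbx1* spanned 6.80 to 9.76 CPM, each with overlapping genotypes. The class sat lowest in E5386, where 0 of 5 were above their mean over mice. The mean log2(CPM + 1) of 11 inhibitory transmitter genes such as *Slc32a1*, *Gad1* and *Gad2* differed by 0.027 between genotypes (exact permutation p = 0.714), and that of 15 pan-neuronal genes by 0.045 (exact permutation p = 0.571). The inhibitory list holds *Pvalb*, which is also in the skeletal muscle list. *Pvalb* was at 87.6 and 100 CPM in the controls with muscle markers, E5386 and E5642, and at 52.5 to 68.6 CPM elsewhere.

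The dorsal excitatory factors were all detected, with 5 of 7 above 0 and 2 below, a median log2 fold change of 0.22 and none called. *Tlx3*, the selector that sets glutamatergic over GABAergic fate, was at 3.89, 5.15, 3.27 and 4.94 CPM in the deleted mice and at 3.53, 3.21, 3.38 and 3.43 CPM in the controls. E5231 and E5568 were highest, E1776 was also above every control, and E5248 was within the controls. The controls lay close together (SD 0.132 CPM against 0.885 CPM in the deleted mice). The log2 fold change was 0.35 (SE 0.16, exact permutation p = 0.114). *Lmx1b* (16.2 to 20.5 CPM) and *Prrxl1* (14.6 to 17.0 CPM), which act with *Tlx3* in the same neurons, had log2 fold changes of 0.08 and -0.04. *Tlx3* and *Prrxl1* are also expressed in sensory ganglia. *Prrxl1* was at 16.3 CPM in E5386, the library lowest in the mean of sensory neuron and nerve root genes. Of those 13 genes 10 passed the filter and 0 were called. The nociceptor genes *Scn10a*, *Scn11a* and *Mrgprd* were at 0.325 CPM or less in every mouse, while *Calca* (10.7 to 22.2 CPM), *Avil* (1.33 to 3.45 CPM) and *P2rx3* (1.05 to 2.15 CPM) were present in all. The part of ganglion RNA in the values of *Tlx3* and *Prrxl1* was not tested.

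*Phox2a* marks anterolateral projection neurons that carry pain and temperature to the brain. It was at 0.889, 1.75, 0.988 and 1.29 CPM in the deleted mice and at 0.985, 0.525, 0.488 and 0.900 CPM in the controls, from 35 to 65 and from 15 to 37 counts. E5231 was the highest and E5642 and E6578 the lowest, and the genotypes overlapped through E1776 and the controls E5386 and E6732. The log2 fold change was 0.75 (SE 0.30, 95% interval 0.08 to 1.41, p = 0.0221 and adjusted p = 0.995 in edgeR's exact test). The gene shares 95 of its exon bases (4.67%) with *Inppl1* on the opposite strand, which had 1855 to 3500 counts. As for *Ptf1a*, the counts behaved as if reads on shared bases were left out, so the value rests on the other exon bases. The strand setting itself was not given, so some uncertainty in the value remains.

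*Lhx2* and *Lhx9* are the LIM factors of dI1 commissural and ipsilateral neurons. *Lhx2* was between 0.330 and 0.750 CPM with a log2 fold change of 0.22. *Lhx9* was at 0.483, 0.377, 0.988 and 0.543 CPM in the deleted mice and at 0.492, 0.556, 0.358 and 0.316 CPM in the controls. E5248 alone stood high, with 35 counts, and the other 7 mice overlapped (log2 fold change 0.47, SE 0.34, and 0.81 without E5386 and E5642). *Maf*, found in deep dorsal horn neurons and also in macrophages, was at 39.2, 35.4, 44.5 and 33.4 CPM in the deleted mice and at 35.4, 50.7, 37.0 and 47.4 CPM in the controls. The highest levels were in E5642, a library with muscle markers, and E6732, the library with liver markers, while E5386, also with muscle markers, was among the lower ones. The part of these tissues in the result was not tested. The log2 fold change was -0.16 (SE 0.13, exact permutation p = 0.343).

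The V1 and dI6 factors, of inhibitory premotor classes, had 2 of 5 above 0 and a median log2 fold change of -0.02. *Foxp2*, of a large V1 subset, was at 3.17, 2.88, 5.87 and 4.68 CPM in the deleted mice and at 3.23, 4.11, 5.01 and 6.35 CPM in the controls. Each genotype spanned about the same range, the lowest in E5231 and the highest in E6732, so that mice of 1 genotype differed more than the genotypes did (log2 fold change -0.17, SE 0.26, and -0.46 without E5386 and E5642). *Mafa*, which marks V1 neurons including Renshaw cells, was at 12.6, 14.7, 10.1 and 13.9 CPM in the deleted mice and at 13.2, 13.1, 13.1 and 11.2 CPM in the controls. E5231 and E5248, both deleted, held the highest and the lowest value, and the log2 fold change was 0.02 (95% interval -0.25 to 0.29). *En1*, the defining V1 factor, spanned 1.19 to 2.26 CPM, and the dI6 factors *Dmrt3* and *Wt1*, of commissural neurons that shape left-right gait, spanned 0.566 to 1.14 and 0.270 to 0.648 CPM, each with overlapping genotypes.

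The V2b factors *Gata2*, *Gata3* and *Tal1* specify ipsilateral inhibitory neurons and are also factors of blood and vessel lineages. *Tal1*, the highest of them per length, was at 7.52, 7.49, 5.84 and 6.49 CPM in the deleted mice and at 7.03, 8.65, 5.85 and 7.29 CPM in the controls. The genotypes covered the same range, with the highest value in E5642 (log2 fold change -0.08, 95% interval -0.38 to 0.23). *Gata2* spanned 5.23 to 8.25 CPM, with its highest value in E5231, and *Gata3* spanned 0.553 to 0.818 CPM. Beside these, the mean log2(CPM + 1) of 11 endothelial and mural genes was highest in E5231 (5.26) and E5642 (5.15) and lowest in E5568 (4.68), and that of 8 erythroid genes ran from 2.38 to 3.93; none of these 19 genes was called, and their part in the V2b values was not tested.

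The V0, V2a and V3 factors mark excitatory premotor classes and were the least abundant, each averaging between 0.313 and 2.13 CPM. They had 3 of 6 above 0, with a median log2 fold change of 0.06. *Evx1*, which defines V0 neurons of the ventral subset, was at 0.660, 0.512, 0.931 and 0.827 CPM in the deleted mice and at 0.520, 0.216, 0.813 and 0.657 CPM in the controls. E5642 was low, with 7 counts, and the rest overlapped (log2 fold change 0.41, SE 0.35, and -0.0022 without E5386 and E5642). *Shox2*, of V2a and related rhythm-generating neurons, was at 1.88, 1.94, 2.68 and 2.48 CPM in the deleted mice and at 1.56, 1.70, 1.89 and 2.53 CPM in the controls. The control E6732 was as high as E5248 and E5568, and the log2 fold change was 0.22 (SE 0.20), or 0.0076 without E5386 and E5642. *Shox2* shares 153 exon bases with *Rsrc1* on the opposite strand (1844 to 2386 counts). The V2a factors *Lhx3*, *Lhx4* and *Sox14* spanned 0.647 to 1.07, 1.32 to 2.65 and 0.270 to 0.480 CPM, and *Sim1* spanned 0.155 to 0.423 CPM, from 6 to 16 counts.

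Among the 9 birth-time and laminar factors, 3 were above 0 and 6 below, with a median log2 fold change of -0.06. *Prox1* was at 46.3, 47.0, 44.9 and 38.5 CPM in the deleted mice (44.2 ± 3.89 CPM, SD, n = 4) and at 58.5, 49.9, 49.1 and 56.7 CPM in the controls (53.5 ± 4.74 CPM, SD, n = 4). Every deleted mouse was below every control, by 47.0 against 49.1 CPM at the nearest. The log2 fold change was -0.28 (SE 0.085, 95% interval -0.47 to -0.09), with p = 0.0286 by exact permutation and an adjusted p = 0.724 by the exact test of edgeR. The genotypes overlapped when the counts were scaled by library size alone. They stayed apart without E5386 and E5642 and without any 1 mouse. Leaving mice out cannot bring together groups already apart, save through refitted scaling, so these runs do not test the separation. The direction was the same under each of 18 alternatives, which include these runs. The highest values were in E5386, a library with muscle markers, and E6732, the library with liver markers. E5642, also with muscle markers, was at 49.9 CPM, and E6578, the control with neither, was at 49.1 CPM. These libraries were not all left out together, and the part of muscle and liver tissue in the difference was not tested.

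*Prox1* is used by oligodendrocyte-lineage and lymphatic endothelial cells as well as by neurons. The mean of 10 oligodendrocyte genes differed by 0.015, that of 8 oligodendrocyte precursor genes by 0.052 and that of 8 lymphatic and mesothelial genes by -0.18 (log2, *Ager*-deleted minus control), with exact permutation p = 0.971, 0.6 and 0.629, and 0 genes of the 3 lists were called. By mouse, the oligodendrocyte mean was highest in E5386 (9.56) and E6732 (9.52), where *Prox1* was also highest. It was 9.23 in E5642, 9.46 in E6578 and 9.43 to 9.50 in the deleted mice. The lymphatic marker *Flt4* was at 6.35, 6.69, 4.23 and 6.13 CPM in the deleted mice and at 5.77, 5.43, 7.77 and 5.67 CPM in the controls. The lymphatic and mesothelial mean was lowest in E5386 (2.27), where *Prox1* was highest, and highest in E6732 (3.92), where *Prox1* came next. That list also holds *Dcn* and *Lum*, at 12.3 and 1.15 CPM in E5386 against 51.3 to 276 and 7.11 to 32.7 CPM elsewhere. *Pdpn*, of the same list, was at 39.5 CPM in E5386, within the 22.7 to 50.5 CPM of the other mice. *Msln* and *Col1a1*, also in the list, were highest in E6732, the library with liver markers. They were at 5.93 and 77.3 CPM there, against 0.127 to 0.594 and 14.7 to 61.7 CPM elsewhere. The lymphatic marker *Lyve1* was at 1.53 CPM in E6732, within the 0.684 to 2.44 CPM of the other mice. *Prox1* shares 133 exon bases (1.59%) with its antisense gene *Prox1os* (69 to 135 counts). The part of these cells and of that overlap in the difference was not tested.

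*Nfib*, a factor of late-born neurons that astrocytes also use, was at 64.8, 50.3, 51.3 and 51.2 CPM in the deleted mice and at 61.9, 64.3, 58.1 and 64.0 CPM in the controls. The deleted mouse E1776 had the highest value of all and the other 3 deleted mice lay below every control (log2 fold change -0.19, SE 0.087, 95% interval -0.38 to 0.0033). Beside this, the mean of 10 astrocyte genes was highest in E1776 (9.35) and 9.22, 9.01 and 9.06 in the other deleted mice, against 9.12 to 9.33 in the controls, and its part in the *Nfib* values was not tested. The remaining 7 factors had log2 fold changes between -0.12 for *Zfhx3*, of early-born long-range neurons, and 0.09 for *Neurod2*, of late-born local neurons. *Satb1* (43.5 to 52.4 CPM), *Zfhx4* (28.1 to 42.9 CPM), *Rorb* (22.8 to 28.9 CPM) and *Zfhx3* (13.8 to 20.8 CPM) were abundant and overlapped between genotypes, as did *Neurod2* (4.50 to 5.93 CPM).

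**Figure D3:**
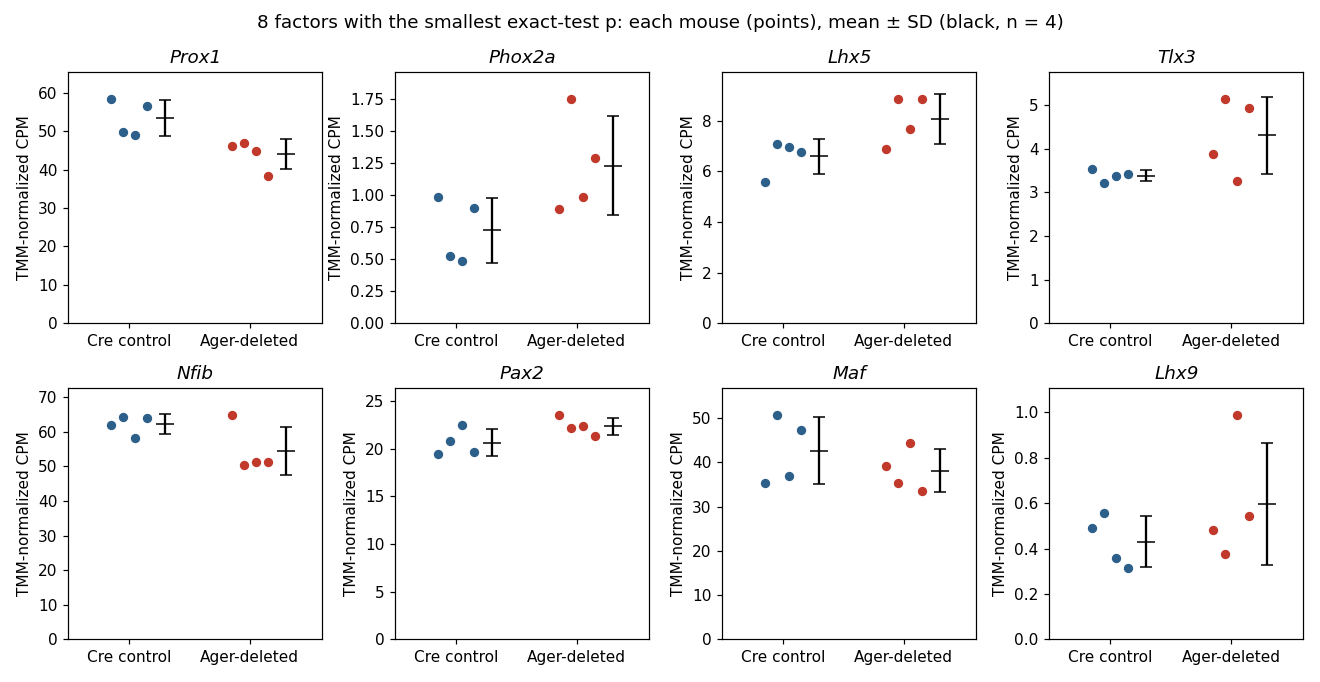
TMM-normalized CPM (axes from 0) of the 8 factors with lowest p in edgeR, with 1 point per mouse and the mean ± SD (n = 4) in black beside each genotype. The groups are apart for *Prox1* alone. Of the 4 deleted mice, 3 lie above all controls for *Lhx5*, *Tlx3* and *Phox2a*, and 3 lie below them for *Nfib*. A single mouse carries the spread of *Lhx9* (E5248).

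How much the factors varied among mice differed by class. The biological coefficient of variation, the spread between mice of a genotype beyond counting error as the fit estimates it, had a median of 15.0% over the 35 factors and 13.3% over all genes. It was lowest for the birth-time and laminar factors (median 10.4%) and the dorsal inhibitory factors (14.1%), and highest for the V1 and dI6 factors (20.1%), next to the V0, V2a and V3 factors, which were also among the least abundant. The largest values were those of *Evx1* (28.5%), *Lhx9* (26.8%) and *Foxp2* (26.8%). Of these *Foxp2* had 107 counts or more in every mouse, and its variance was 14.4 times that of counting alone.

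*Bcl11a*, *Prrxl1* and *Bcl11b* had the lowest coefficients of variation over the 8 mice. *Bcl11a* and *Bcl11b* are zinc finger factors of dorsal horn neurons. *Bcl11a* was at 14.5, 15.5, 15.4 and 15.9 CPM in the deleted mice and at 15.7, 14.3, 14.8 and 15.1 CPM in the controls, a coefficient of variation of 3.82% over 8 mice against 4.26% from counting error alone. *Prrxl1* varied by 4.52% against 4.16%, and *Bcl11b* (8.20 to 9.68 CPM) by 4.81% against 5.53%. On the scale of the fitted biological coefficient of variation the lowest were *Satb1* (9.18%) and *Pax2* (9.26%). For 5 factors in all the spread was no larger than counting error, and for 16 it was more than 2 times as large. For *Bcl11a* the 95% interval of the log2 fold change was -0.13 to 0.19.

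**Figure D4:**
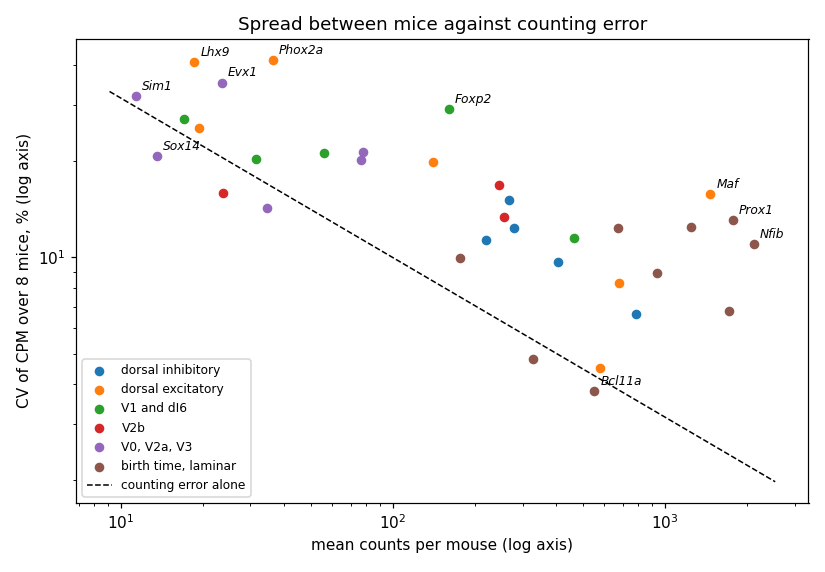
Coefficient of variation of CPM over 8 mice (%, log axis) against mean counts per mouse (log axis), 1 point per factor coloured by class, with the dashed line at counting error alone. *Bcl11a* lies under the line, *Foxp2*, *Maf*, *Prox1* and *Nfib* lie far above it, and the sparse factors at the left lie near it except *Phox2a*, *Lhx9* and *Evx1*.

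Mice of 1 genotype differed in which classes were high. E5248 had the highest level of 13 of 35 factors (37.1%, against 17.3% of all genes), and all 6 of the V0, V2a and V3 factors were above their mean over mice there, by a median of 0.35 on the log2(CPM + 0.1) scale. E5231, also *Ager*-deleted, showed a different profile, with 0 of these 6 above their mean (median -0.41). Of the 11 factors of the V1, dI6, V0, V2a and V3 classes, 10 were below their mean in E5231 and 6 were at their lowest of the 8 mice. E5231 was lowest for 22.9% of the 35 factors and for 15.7% of all genes. Among those 6, *Sox14*, *Wt1*, *Dmrt3* and *Lhx3* had only 10, 10, 21 and 24 counts in E5231. The spread of *Sox14* and *Lhx3* over 8 mice (20.8% and 14.3%) was within counting error (27.1% and 17.1%). The V2b class, also ventral, went the other way in E5231, with 2 of 3 above their mean (median 0.10) and *Gata2* at its highest of the 8 mice. Of the 12 dorsal factors, 8 were above their mean in E5231 and 0 were at their lowest. Over all genes 49.0% were below their mean in E5231.

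*Lhx4* carried the contrast most plainly among V2a factors, at 1.32 CPM in E5231 and 2.65 CPM in E5248, while *Tlx3* ran the other way, at 5.15 and 3.27 CPM. Beside this, the pan-neuronal mean was lowest in E5231 (8.39) and highest in E5248 (8.63), and the mean of 15 microglia and macrophage genes was highest in E5231 (6.56) and lowest in E5248 (5.97). The motor neuron mean was 3.75 and 3.70 in these mice, within the 3.49 to 3.91 of all 8. All factors of a mouse were read from 1 library, so they are not independent of each other, and the part of the neuronal and microglial content in this pattern was not tested.

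**Figure D5:**
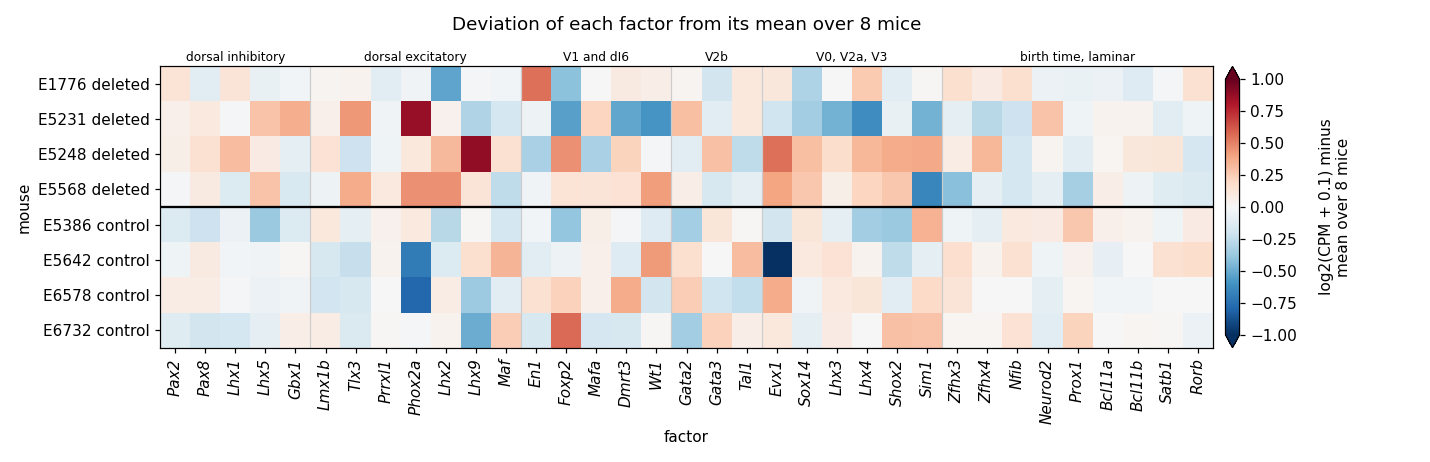
Deviation of each factor (columns, by class) from its mean over 8 mice in each mouse (rows, *Ager*-deleted above the black line), on the log2(CPM + 0.1) scale, red above and blue below. The row of E5231 is blue across the V1, dI6, V0, V2a and V3 columns except *Mafa* and the row of E5248 is red across V0, V2a and V3, although both mice are *Ager*-deleted.

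A list of 77 further transcription factors of spinal neurons gave the same count of calls. Of these, 63 passed the filter and 14 did not, 6 of them with 3 counts or fewer in every mouse. None of the 63 was called (edgeR's exact test, lowest adjusted p = 1, with 1 at an unadjusted p under 0.05 and 4 in the quasi-likelihood test), 30 were above 0 and 33 below, and the median log2 fold change was -0.01. Without E5386 the exact test in edgeR called 1, *Nr2f2* (log2 fold change -0.52, adjusted p = 0.0499), which was lowest in E5386 (10.2 CPM). That fit called 72 of 19716 genes (0.365%).

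The genotypes did not overlap for 5 of the 63 (7.94%, against 3.88% of all genes), and in each the deleted mice were higher. These were *Lbx1*, *Skor1*, *Skor2*, *Uncx* and *Foxp4*. *Lbx1*, the selector of the dI4 to dI6 domain, was at 15.3, 14.7, 12.3 and 12.6 CPM in the deleted mice and at 11.9, 12.3, 11.8 and 11.4 CPM in the controls. *Skor1*, its corepressor, was at 8.13, 8.65, 7.99 and 8.89 CPM against 6.18, 7.53, 7.90 and 6.93 CPM. The nearest mice of the genotypes were within 0.1 CPM of each other for these genes, and the log2 fold changes were 0.22 (SE 0.093) and 0.24 (SE 0.11). *Skor2* and *Uncx* had log2 fold changes of 0.24 and 0.39, and *Foxp4* 0.18. Of the others among the 5 smallest p, *Onecut3* had 0.67 (SE 0.30) and *Rora* -0.18 (SE 0.088), with overlapping genotypes.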

How the data were processed

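Whole lumbar cord RNA of 8 mice was analysed, grouped by the genotype in the labels. The deposited counts are raw, whole numbers per gene that the authors made with Trimmomatic 0.36, STAR 2.7.3a on mm10 and featureCounts of Subread 1.6.3 with GENCODE M25 from a stranded polyA library. The strand setting was not given in the sources used here. Counts were used for every test. The authors also deposited log2 values of TMM-normalized CPM for 19470 genes, which were recomputed from the counts to within 4.78e-06 and used only for that check. The labels name edgeR 3.26.8.

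Genes passing filterByExpr (minimum 10 counts) were normalized by TMM and tested in edgeR 4.0.16 (R 4.3.3) with exactTest and estimateDisp without a design. Benjamini-Hochberg adjustment ran over all 19470 genes, with a threshold of 0.05. SE and 95% intervals are from the quasi-likelihood fit. Single values were compared by exact two-sided permutation over 70 splits of log2(CPM + 1), unadjusted. Over 15 marker lists the lowest adjusted p was 0.824. Tests were first checked on simulated data. The labels name 8 separate mice and no litters or batches, so p-values measure the spread between these mice. Counts of the 28 pairs of libraries differed by more than sampling noise (chi-square per degree of freedom 17.4 to 131).

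Exon lengths, positions and overlaps are from GENCODE M21 on GRCm38. No exon sequence of 50 bases was shared between paralogs among the members. Strand use was checked on genes of 300 exon bases or more inside genes with 8000 or more summed counts. The members and lists were chosen with earlier results of these data known. Values in every mouse are given for the 8 smallest p, factors without overlap, the 3 largest dispersions, the highest per-length level of each class, and *Bcl11a*, chosen after its values were seen. Alternatives were other normalizations (RLE, upper quartile, library size), filters, dispersions, DESeq2 1.42.0, limma-voom 3.58.1, muscle or neuronal score as a covariate, and mice left out. Human data, imaging and behavior are not analysed here.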

Additional observations from a re-analysis of the deposited data

Results flagged for a closer look

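In groups of 4 mice, 100 sets of values were examined for a mouse far from the other 3, and 7 were found; chance gives about 1 in 20. Among the factors, *Gata3* was high in the *Ager*-deleted mouse E5248 (0.818 CPM, against 0.559 to 0.593 CPM in the other 3), *Lhx4* was low in the *Ager*-deleted mouse E5231 (1.32 CPM, against 2.43 to 2.65 CPM), *Nfib* was high in the *Ager*-deleted mouse E1776 (64.8 CPM, against 50.3 to 51.3 CPM) and *Mafa* was low in the control E6732 (11.2 CPM, against 13.1 to 13.2 CPM). The value of *Gata3* in E5248 rests on few reads, and its spread over 8 mice (15.9%) was within counting error (20.5%). Among marker means on the log2(CPM + 1) scale, erythroid genes were low in the control E5386 (2.97), sensory neuron and nerve root genes were low in E5386 (1.86) and liver genes were high in the control E6732 (5.47).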

How the results depend on the processing

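No factor was called under any alternative run, and 35 passed the filter except with a minimum of 50 counts, which left 25. The count of factors without overlap of genotypes was 1, became 0 with library size scaling alone, and ran from 1 to 4 (2.86% to 11.4%) with each mouse left out, against 4.99% to 11.0% of all genes. Leaving a mouse out can lower this count only through refitted scaling, so these runs do not test the separation of *Prox1*. The median biological coefficient of variation was 15.0%, became 16.8% with common and tagwise dispersions, 16.2% without the filter and 12.5% with a minimum of 50 counts, and ran from 14.8 to 15.6% with each mouse left out. Calls among the 63 further factors ran from 0 to 1. Of the 13 factors named by the rule, 10 of 234 alternative values turned in sign and 0 became called. *Tal1* became 0.063 with the muscle covariate, 0.0042 with the neuronal covariate and 0.046 without E5386 and E5642, and ran from -0.16 to 0.014 with each mouse left out. *Evx1* became -0.0068 with the muscle covariate and -0.0022 without E5386 and E5642, where *Shox2* became 0.0076, *Foxp2* -0.46 and *Lhx9* 0.81, each with its sign kept. With each mouse left out, *Mafa* ran from -0.051 to 0.12 and *Foxp2* from -0.38 to 0.013. For *Tal1* and *Evx1* the cause was not tested. No paired analysis was possible because the labels give mouse names and no shared replicate numbers. Depth limits the 13 factors with under 100 counts in some mouse.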
